A study of Mus musculus with 6 samples.

Results

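The nuclear-encoded respiratory chain genes are the chromosomal genes for subunits of complexes I to V of the mitochondrial inner membrane and for the mobile electron carrier cytochrome c. They were chosen by symbol, as genes whose names begin with Ndufa, Ndufb, Ndufc, Ndufs or Ndufv and a digit, with Uqcr, Atp5 or Cox and a digit of 4 to 8, or that are named Sdha to Sdhd, Cyc1 or Cycs. The rule took 40 of the 9295 genes of the table: 16 of complex I, 1 of complex II, 5 of complex III, cytochrome c itself, 6 of complex IV and 11 of complex V. In the mouse RefSeq gene table the same rule takes 89 protein-coding genes, 40 of complex I, 4 of complex II, 9 of complex III, 1 for cytochrome c, 18 of complex IV and 17 of complex V, so less than the full set of subunits is described here. All 40 passed the filter on low counts.

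RNA came from bone marrow of mice with acute myeloid leukemia (AML), in 6 libraries. Of these, 3 are labelled KO, with the genotype PAPOLA KO, and 3 are labelled Con, with the genotype PAPOLA flox/flox, in which the gene carries recombination sites. PAPOLA, poly(A) polymerase alpha, tails new messenger RNA in the nucleus, and the study asked what its loss does in the leukemia. The labels give the cell type as leukemia and name no Cre driver, cell sort, leukemia-initiating gene, age, sex or batch, and they do not say that the libraries of a group came from separate animals, so the spread behind the p-values may be technical in part or whole.

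The respiratory chain passes electrons from NADH through complex I, or from succinate through complex II, to coenzyme Q, and on through complex III, cytochrome c and complex IV to oxygen. Complexes I, III and IV pump protons across the inner membrane, and complex V, the ATP synthase, uses the gradient to make ATP. Core subunits of these machines carry the flavin, iron-sulfur and heme groups or the catalytic sites, while many small accessory subunits surround them in the membrane, and leukemic blasts are known to draw on this pathway for survival.

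Library totals were 8875022 to 9768143 counts in the libraries labelled KO and 11253932 to 11436216 in those labelled Con. Papola itself had 2928, 2929 and 2440 counts in KO and 3751, 3779 and 3642 in Con. Its log2 fold change was 0.22 with an adjusted p of 0.0290 in edgeR's quasi-likelihood test, with the opposite sign, -0.13, when libraries were scaled by size alone, and the call was lost without any one library other than KO replicate 3 (adjusted p 0.0613 to 0.0814). Counts over single exons were not analysed here, so the gene-level value does not check the labels, and every direction below rests on them. Markers of other marrow cells differed between the groups. Calls are at an adjusted p under 0.05 in the same test. That test called 39.6% of all tested genes higher in KO and 42.4% lower. Late neutrophil markers summed to 15.8% to 18.3% of counts in KO and 0.927% to 0.999% in Con, with 18 of 18 called higher, and promyelocyte markers averaged 0.527% in KO and 0.0828% in Con, with 7 of 7 called higher. Erythroid markers took 1.53% to 2.19% in KO and 0.0592% to 0.0711% in Con, with 11 of 12 called higher and 1 lower, and macrophage markers 0.0818% to 0.154% in KO and 2.23% to 3.20% in Con, with 3 of 10 called higher and 7 lower. Gpnmb and Mmp12, both called lower, made up most of the macrophage sum in Con. The 3 called higher were C1qa, C1qb and C1qc, with log2 fold changes of 7.38, 5.98 and 5.65. Stroma and endothelium markers summed to 0.0184% to 0.0393% in KO and 0.000567% to 0.000773% in Con, with 5 of 5 called higher and Sele at 0 in all Con libraries, and B cell markers averaged 0.0163% in KO and 0.00631% in Con, with 3 of 5 called higher and none lower. T and NK cell markers had 6 of 8 called higher, but their sum was lower in KO, 0.0156% to 0.0161% against 0.0461% to 0.0689% in Con, with Gzmb and Cd28 called lower. The part of these cell types in the results below was not tested, and in such bulk RNA a change in the share of a cell type and a change in RNA per cell cannot be told apart.

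In the libraries labelled KO, most respiratory chain genes stood higher relative to other genes than in Con, but not all parts of the machine moved together. With trimmed-mean (TMM) scaling, 24 of the 40 genes (60%) were called higher in KO, 5 (12.5%) lower and 11 neither, at an adjusted p under 0.05 in edgeR's quasi-likelihood test with Benjamini-Hochberg adjustment over 8358 genes. Over all tested genes 39.6% were called higher and 42.4% lower. The higher genes included small accessory subunits of the complex I membrane arm (Ndufb7, Ndufb11, Ndufb3) and stalk and membrane subunits of ATP synthase (Atp5e, Atp5h, Atp5mpl), while the genes called lower were Ndufs1, Sdha, Cyc1, Cox7b and Atp5b. The 5 lower calls were 3 without KO replicate 3 or without Con replicate 1, and 2 without Con replicate 2 or Con replicate 3.

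Changes were modest for this comparison. The median log2 fold change of the 40 genes was 0.40, beside -0.06 over all tested genes, and 30 of the 40 lay above that all-gene median. A call with a change of at least 2-fold was made for 9 members (22.5%), against 46.6% of all tested genes. The 3 KO values and the 3 Con values did not overlap for 32 members (80%), against 84.5% of all tested genes, so separation of the groups was no more common among the members than elsewhere. Leaving out each library in turn kept the call in all 6 fits for 23 higher genes and for Ndufs1 and Atp5b among the lower ones, and Uqcr10, Sdha, Cyc1 and Cox7b lost it in some.

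**Figure D1:**
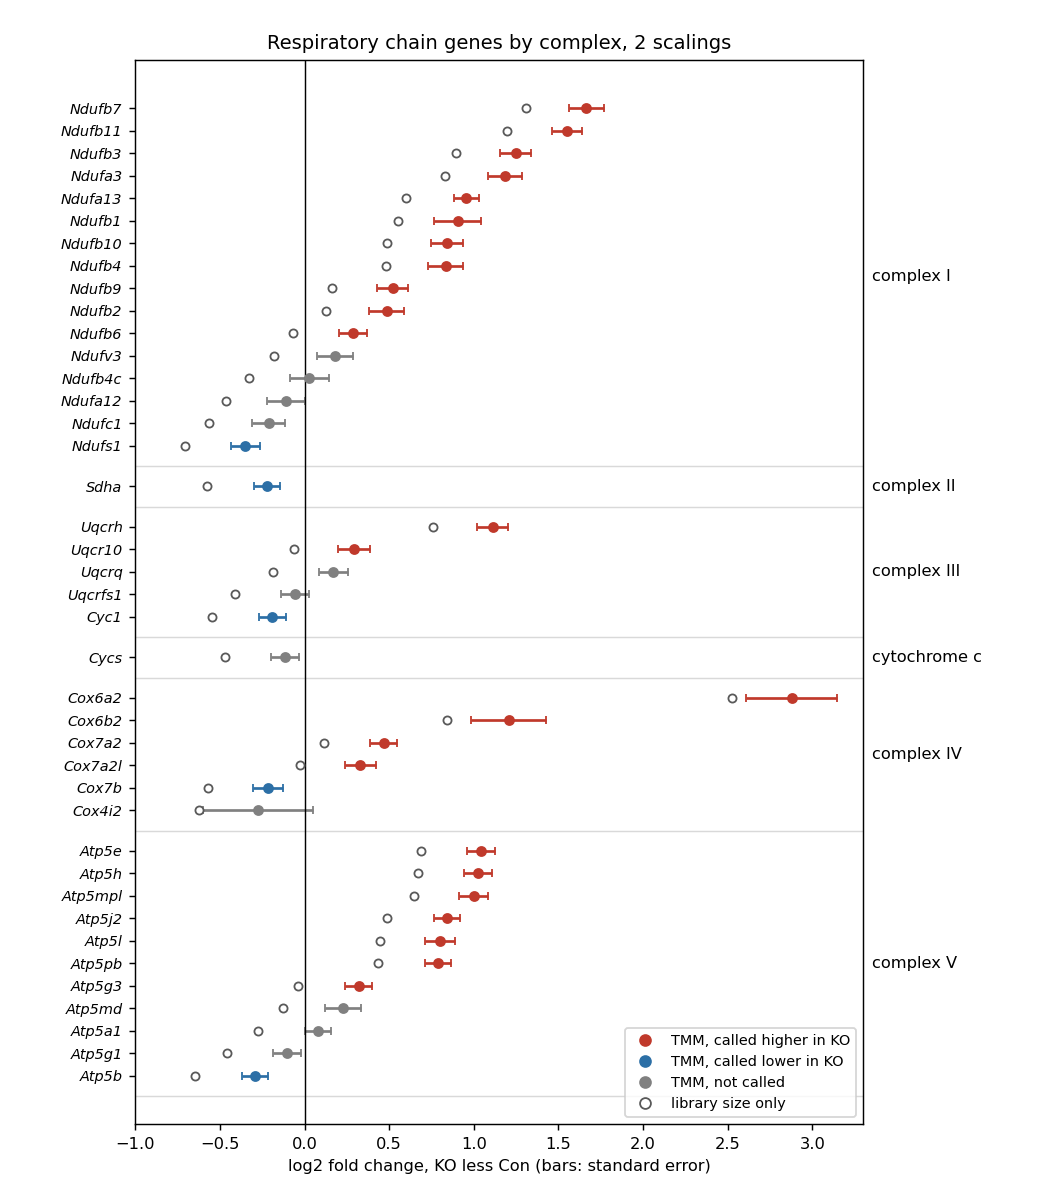
Log2 fold change, KO less Con, of the 40 respiratory chain genes grouped by complex; filled points are the TMM-scaled fit with its standard error, coloured by call, and open circles the fit scaled by library size alone. Most filled points of complexes I and V lie right of 0, and every open circle lies left of its filled point, so that 9 genes with a TMM value above 0, among them Atp5a1, Ndufb4c and Uqcrq, fall below 0 there.

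How many members stood higher depended on the scaling. Dividing by library size alone moved the median log2 fold change of all tested genes by -0.35 relative to TMM, upper-quartile factors moved it by -0.09 and the median-ratio (RLE) factors of DESeq by 0.05. By library size 17 members were called higher and 12 lower, beside 29.8% and 53.6% of all tested genes. RLE gave 26 higher and 2 lower (40.9% and 40.6% of all tested genes), and upper-quartile factors 22 and 6 (37.2% and 45.2%). The distance between the members' median and the all-gene median was 0.46 under each of these 4 scalings, and 30 of 40 lay above the all-gene median by TMM and by library size. A scaling factor moves every gene by nearly the same amount, so these values are nearly fixed by construction and test nothing across scalings. Under all 4 scalings 17 genes were called higher and 2, Ndufs1 and Atp5b, lower, while 9 genes changed direction and Ndufv3 and Cox4i2 were called under none.

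**Figure D2:**
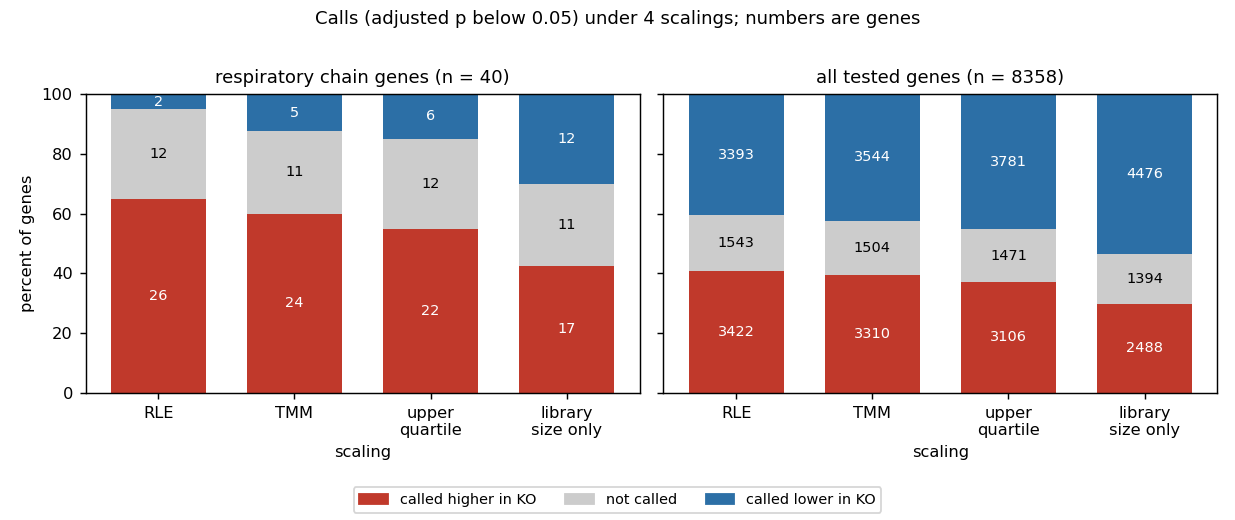
Percent of genes called higher in KO, not called, or called lower in KO (adjusted p under 0.05) under 4 scalings, for the 40 respiratory chain genes (left) and the 8358 tested genes (right), with the number of genes printed in each segment. The members' higher calls go down to 17 with library size alone while their lower calls reach 12, and the same tilt is seen over all tested genes, with 2488 higher and 4476 lower.

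As a share of all counts, the 40 genes together took 0.706%, 0.788% and 0.718% in KO and 0.781%, 0.726% and 0.740% in Con, and these values overlap. The means were 0.738% ± 0.0443 in KO and 0.749% ± 0.0284 in Con (SD, n = 3 each). Outside the neutrophil, promyelocyte and erythroid markers, the members held 0.915% of the remaining counts in KO and 0.757% in Con on average. The markers left out took more of the counts in KO, so leaving them out raises the KO value more by construction. Macrophage markers, with the larger sum in Con, were not left out. Complex I genes held 0.151% of the counts in KO against 0.116% in Con, complex III genes 0.0703% in KO against 0.0677% in Con, complex IV genes 0.0653% in KO against 0.0697% in Con, and complex V genes 0.404% in KO against 0.427% in Con. Of these sums, that of complex I was higher in every KO library than in any Con library, while those of complexes III, IV and V overlapped. Exact permutation of 3 against 3 libraries cannot give a two-sided p below 0.1, so the shares are described without a test.

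**Figure D3:**
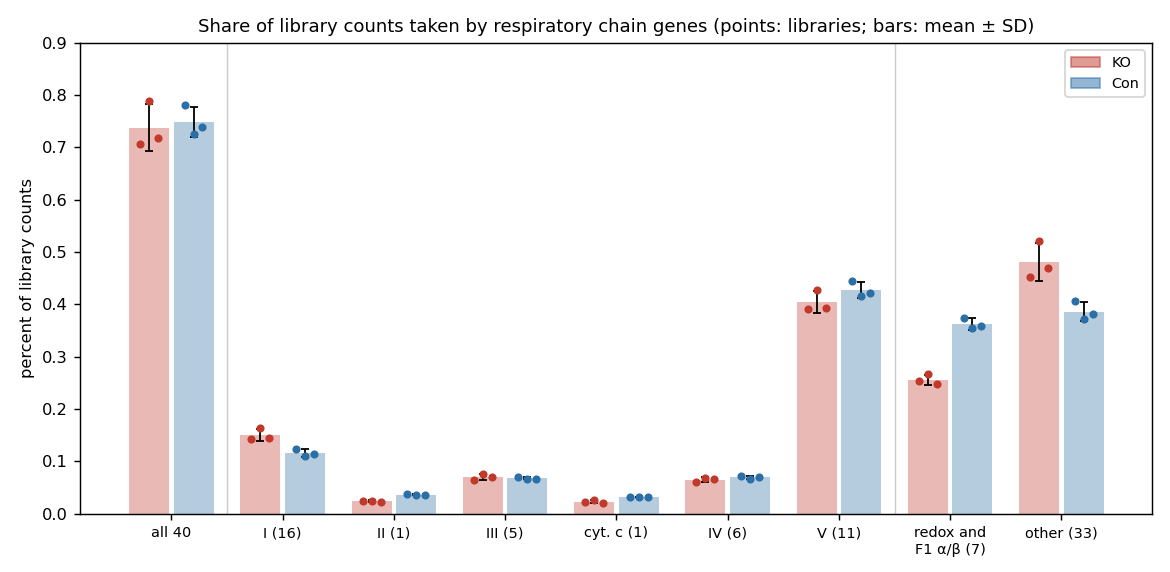
Percent of each library's counts taken by the respiratory chain genes, all together, by complex, and for 7 genes of redox centres, cytochrome c and the ATP synthase alpha and beta subunits against the other 33; points are libraries and bars the mean ± SD of 3. The total of KO and Con overlaps near 0.7% to 0.8%, while the 7 genes stand lower and the other 33 higher in KO (0.256% in KO against 0.362% in Con, and 0.481% in KO against 0.386% in Con). The split into 7 and 33 genes was made after the values were seen and is a description only.

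Complex I, the NADH dehydrogenase, had 11 of its 16 genes called higher in KO, 1 lower and 4 neither, with a median log2 fold change of 0.68. The all-gene shares were 39.6% higher and 42.4% lower. By library size complex I had 8 higher and 4 lower, with a median of 0.32, beside 29.8% and 53.6% of all tested genes. Ndufb7, a membrane-arm subunit on the intermembrane-space side (gene ID 66916), had 197, 226 and 190 CPM (the rate of counts in a library, TMM scaled) in KO, against 71.3, 62.8 and 59.1 CPM in Con. Each KO value was more than 2-fold any Con value, and the log2 fold change was 1.66 ± 0.10 (SE), with an adjusted p of 4.3e-07. Ndufb11 (gene ID 104130), a membrane-arm subunit whose human gene is mutated in a syndrome of linear skin defects, had 182, 213 and 208 CPM in KO and 71.9, 66.5 and 67.1 CPM in Con. Its groups were as far apart, with a log2 fold change of 1.55 ± 0.09 and an adjusted p of 2.5e-07, and it overlaps Rbm10 on the opposite strand in the GENCODE annotation. Ndufb3 (gene ID 66495), also of the membrane arm, had 136, 165 and 143 CPM in KO and 63.6, 61.8 and 61.7 CPM in Con, a log2 fold change of 1.25 ± 0.09 (adjusted p 1.2e-06).

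The Ndufb subunits, which build the outer part of the membrane arm, are 10 of the 16 complex I genes here. Of these 10, 9 were called higher and none lower, with a median log2 fold change of 0.84, beside all-gene shares of 39.6% and 42.4%. By library size alone the 10 split into 6 higher, 1 lower and 3 neither, beside 29.8% higher and 53.6% lower over all tested genes. Between the leading genes and the lowest lay Ndufa3, at the base of the membrane arm (1.19), Ndufa13, known as GRIM19 and as a STAT3 partner (0.96), Ndufb1 (0.90), Ndufb10 (0.84), Ndufb4 (0.83), Ndufb9 (0.52) and Ndufb2 (0.48), all called higher, though Ndufb9 and Ndufb2 missed the threshold by library size alone. Ndufb6, a membrane-arm subunit, had 55.6, 62.8 and 57.9 CPM in KO and 49.9, 47.1 and 47.7 CPM in Con, and its log2 fold change was 0.29 by TMM (adjusted p 0.0102) but -0.07 by library size. Ndufb4c, a near copy of Ndufb4 with counts that are in part not whole, had 17.9, 15.8 and 16.9 CPM in KO and 16.4, 16.6 and 16.6 CPM in Con. Its groups overlapped, with a log2 fold change of 0.03 by TMM, -0.06 by upper-quartile factors and -0.33 by library size, and the split of reads between Ndufb4 and Ndufb4c makes both uncertain. Ndufv3, an accessory subunit of the NADH-binding arm, had 0.18 by TMM and -0.18 by library size and was called by neither.

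The lowest genes of complex I included its largest core subunit. Ndufs1 (gene ID 227197), which carries iron-sulfur clusters of the NADH-oxidising arm, had 114, 98.7 and 108 CPM in KO and 128, 145 and 136 CPM in Con. Every KO library was below every Con library, with a log2 fold change of -0.35 ± 0.09, an adjusted p of 0.0044, and calls of lower in all 6 fits that left out a library. Ndufc1, a small membrane-arm subunit, had 25.9, 28.2 and 27.7 CPM in KO and 30.2, 31.8 and 32.7 CPM in Con. These groups did not overlap either, but the value of -0.21 ± 0.10 had an adjusted p of 0.0661 and passed the threshold by upper-quartile factors and by library size (-0.57). Ndufa12, an accessory subunit whose place is held by the assembly factor Ndufaf2 before it arrives, had 47.7, 60.3 and 45.7 CPM in KO and 57.8, 53.7 and 54.2 CPM in Con. KO replicate 2 was above all Con libraries and the other KO libraries were below them, the log2 fold change was -0.11 with an adjusted p of 0.390, and without KO replicate 2 it was -0.24 with an adjusted p of 0.0313.

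Complex II was represented by Sdha alone (gene ID 66945), the flavoprotein that oxidises succinate and also belongs to the tricarboxylic acid cycle. It had 287, 280 and 261 CPM in KO and 317, 322 and 326 CPM in Con. The KO libraries were all below the Con libraries, by a log2 fold change of -0.22 ± 0.08 with an adjusted p of 0.0212. The adjusted p was 0.107 without Con replicate 2, 0.115 without Con replicate 3 and 0.0681 with RLE factors, and by library size the value was -0.58. Its share of counts was 0.0244% in KO and 0.0364% in Con.

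Complex III, the cytochrome bc1 complex, had 2 of 5 genes called higher, 1 lower and 2 neither by TMM. The higher calls were near the all-gene share, as 39.6% of all tested genes were called higher and 42.4% lower. The median log2 fold change of the 5 genes was 0.17 by TMM and -0.19 by library size. Uqcrh, the hinge protein that helps cytochrome c dock (gene ID 66576), had 303, 358 and 369 CPM in KO and 158, 158 and 159 CPM in Con. Its Con libraries were nearly level and each KO library lay far above them, a log2 fold change of 1.11 ± 0.09 with an adjusted p of 2.7e-06. Uqcr10, a small membrane subunit, had 101, 125 and 111 CPM in KO and 96.6, 88.5 and 90.1 CPM in Con. The groups did not overlap and the log2 fold change was 0.29 ± 0.10 by TMM (adjusted p 0.0167) but -0.06 by library size, and the TMM call was lost without KO replicate 2 (adjusted p 0.0547), Con replicate 2 (0.0592) or Con replicate 3 (0.0552). Uqcrq, a ubiquinone-binding small subunit, had 102, 110 and 96.5 CPM in KO and 94.6, 85.6 and 94.5 CPM in Con, with 0.17 by TMM (adjusted p 0.0949) and -0.19 by library size.

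The electron-carrying subunits of complex III were not higher in KO. Uqcrfs1, the Rieske iron-sulfur protein, had 125, 145 and 136 CPM in KO and 138, 142 and 142 CPM in Con. The groups overlapped, with a log2 fold change of -0.06 ± 0.08 and an adjusted p of 0.528, and library size alone gave -0.41 and a call. Cyc1, cytochrome c1 (gene ID 66445), had 105, 105 and 94.2 CPM in KO and 112, 116 and 119 CPM in Con. Every KO library was below every Con library, but the log2 fold change of -0.19 ± 0.08 had an adjusted p of 0.0489, close to the threshold, and leaving out KO replicate 3, Con replicate 1, Con replicate 2 or Con replicate 3 raised it to 0.0788 to 0.220.

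Cytochrome c, encoded by Cycs (gene ID 13063), carries electrons from complex III to complex IV and starts caspase activation when released into the cytosol. It had 255, 286 and 241 CPM in KO and 279, 279 and 289 CPM in Con. KO replicate 2 lay within the Con range and the other KO libraries below it, a log2 fold change of -0.12 ± 0.09 with an adjusted p of 0.234. Without KO replicate 2 it was -0.19 (adjusted p 0.0497), and by library size -0.47 with a call of lower. The ratio of Cycs to Cyc1 counts within a library, a pair chosen after the values were seen, was 2.43, 2.73 and 2.56 in KO and 2.50, 2.40 and 2.43 in Con, so these partners kept overlapping proportions.

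Complex IV, cytochrome c oxidase, was represented by 6 genes. By TMM 4 were called higher, 1 lower and 1 neither, beside 39.6% higher and 42.4% lower over all tested genes. The median log2 fold change of the 6 genes was 0.40 by TMM and 0.04 by library size. Several of them are tissue-type isoforms. Cox6a2 (gene ID 12862), the isoform of heart and skeletal muscle, had 6.89, 9.13 and 10.04 CPM in KO and 1.52, 1.02 and 0.960 CPM in Con, from 59, 74 and 78 counts and 20, 13 and 12 counts. It had the largest fold change of the 40 genes, 7.35-fold or 2.88 ± 0.27 on the log2 scale (adjusted p 6.1e-06), and it overlaps Itgad on the opposite strand. It was the only gene of the 6 striated muscle markers in the table, so that list could not be checked further. Cox6b2, the testis-type isoform, had 16.01, 12.6 and 16.3 CPM in KO and 8.64, 4.87 and 5.92 CPM in Con, a log2 fold change of 1.21 ± 0.22 with an adjusted p of 6.6e-04. Cox4i2, an isoform known from lung and from low oxygen, had 12, 12 and 6 counts in KO and 19, 18 and 20 in Con, and its log2 fold change of -0.27 ± 0.32 (adjusted p 0.448) was not detectable as different from 0 at this depth.

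The broadly expressed complex IV genes changed in both directions, each by less than 2-fold. Cox7a2, the non-muscle isoform, had 184, 204 and 178 CPM in KO and 139, 131 and 139 CPM in Con, without overlap, and a log2 fold change of 0.47 ± 0.08 by TMM (adjusted p 4.6e-04) with 0.11 and no call by library size. Cox7a2l, which joins complexes III and IV into supercomplexes, had 343, 378 and 421 CPM in KO and 299, 300 and 310 CPM in Con, with 0.33 ± 0.09 by TMM (adjusted p 0.0074) and -0.03 by library size. The ratio of Cox7a2 to Cox7a2l counts was 0.537, 0.540 and 0.424 in KO and 0.467, 0.437 and 0.450 in Con, which overlap. Cox7b (gene ID 66142), a small membrane subunit, had 143, 159 and 129 CPM in KO and 170, 165 and 166 CPM in Con. Its groups did not overlap, and the log2 fold change of -0.22 ± 0.09 had an adjusted p of 0.0454, but leaving out any library except KO replicate 2 raised the adjusted p to 0.0842 to 0.150.

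**Figure D4:**
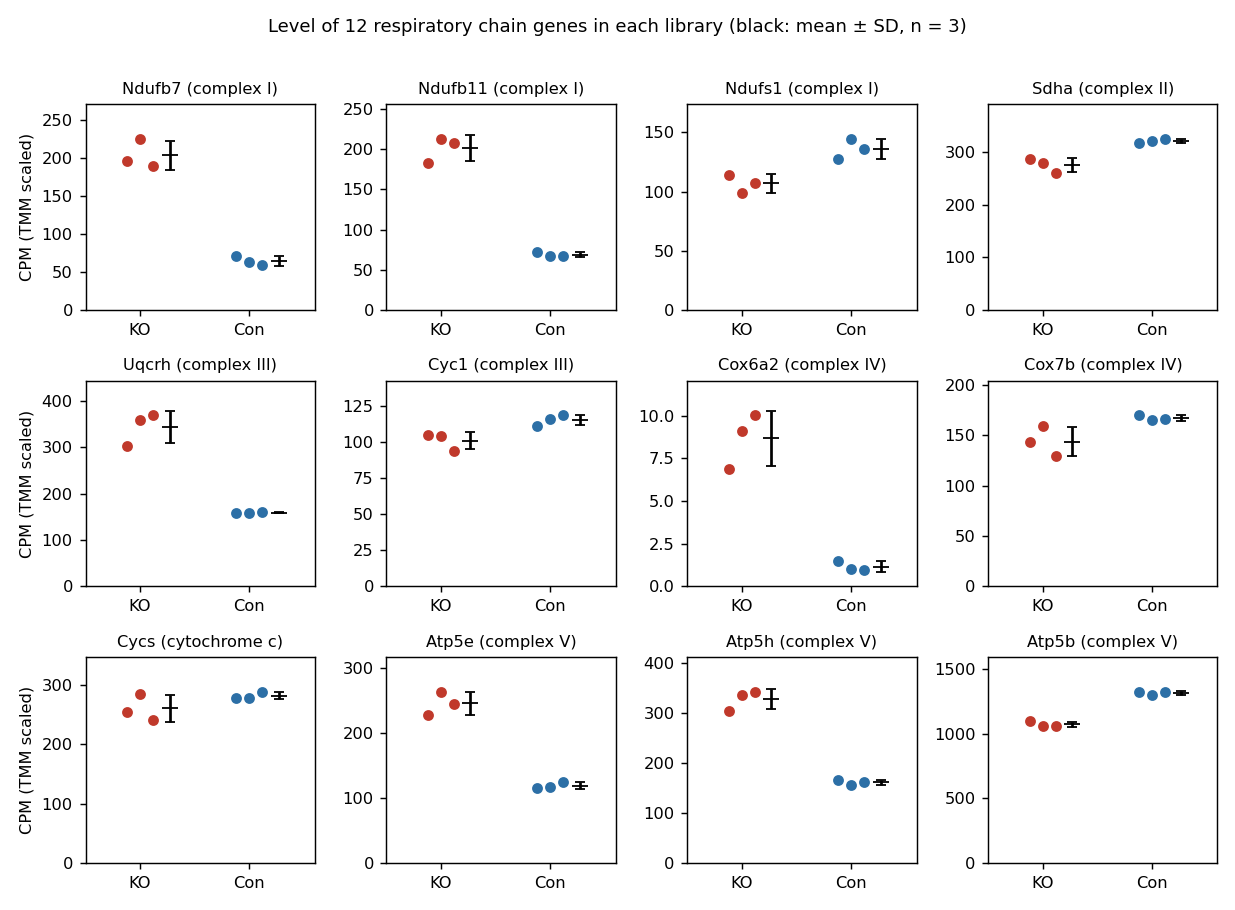
CPM (TMM scaled, linear axes from 0) of 12 respiratory chain genes in the KO and the Con libraries; coloured points are libraries and the black mark beside them is the mean ± SD of 3. Ndufb7, Ndufb11, Uqcrh, Cox6a2, Atp5e and Atp5h sit higher in all KO libraries, Ndufs1, Sdha, Cyc1, Cox7b and Atp5b sit lower by less, and Cycs overlaps.

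Complex V, the ATP synthase, had 7 of 11 genes called higher in KO, 1 lower and 3 neither by TMM. The all-gene shares were 39.6% higher and 42.4% lower. The median log2 fold change of the 11 genes was 0.79 by TMM and 0.43 by library size. Atp5e, the epsilon subunit of the rotating central stalk (gene ID 67126), had 228, 264 and 246 CPM in KO and 115, 118 and 125 CPM in Con. Atp5h, subunit d of the stationary peripheral stalk (gene ID 71679), had 304, 337 and 342 CPM in KO and 167, 155 and 161 CPM in Con. Atp5mpl, a small membrane proteolipid (gene ID 70257), had 117, 131 and 113 CPM in KO and 60.5, 59.0 and 61.3 CPM in Con. In each of these 3 genes all KO libraries were well above all Con libraries, with log2 fold changes of 1.04 ± 0.08 (adjusted p 2.3e-06), 1.03 ± 0.08 (2.1e-06) and 1.00 ± 0.08 (3.1e-06), in that order.

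The stalk and membrane genes Atp5j2, subunit f (0.84), Atp5l, subunit g (0.80), and Atp5pb, subunit b of the peripheral stalk (0.79), were also called higher under all 4 scalings. Atp5md, also called DAPIT and linked to pairing of ATP synthases, had 83.0, 98.6 and 77.7 CPM in KO and 72.3, 68.8 and 80.4 CPM in Con, and its groups overlapped, with 0.23 by TMM (adjusted p 0.0752) and -0.13 by library size. The c-ring of the membrane rotor can be made from several genes whose mature proteins are identical. Atp5g3 had 358, 408 and 363 CPM in KO and 305, 300.2 and 299.6 CPM in Con, with 0.32 ± 0.08 by TMM (adjusted p 0.0048) and -0.04 by library size. Atp5g1 had 111, 109 and 97.7 CPM in KO and 115, 110 and 116 CPM in Con, overlapping, with -0.10 ± 0.08 (adjusted p 0.258) by TMM and -0.46 with a call by library size. The ratio of Atp5g1 to Atp5g3 counts, which no scaling changes, was 0.310, 0.268 and 0.269 in KO and 0.379, 0.366 and 0.388 in Con, lower in every KO library.

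The alpha and beta subunits, which form the catalytic head, were not higher in step with the stalk. Atp5b (gene ID 11947), the beta subunit with the catalytic sites, had 1098, 1065 and 1063 CPM in KO and 1327, 1299.8 and 1320.5 CPM in Con. The groups were narrow and apart, with a log2 fold change of -0.29 ± 0.08 (adjusted p 0.0061), and the gene was called lower in all 6 fits that left out a library and under all 4 scalings. Atp5a1 (gene ID 11946), the alpha subunit, had 919.9, 980.2 and 926 CPM in KO and 901, 876 and 898 CPM in Con. All KO values were above the Con values by TMM, but the log2 fold change of 0.08 ± 0.08 was not called (adjusted p 0.366), and it was -0.01 by upper-quartile factors and -0.28 with a call of lower by library size.

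Subunits that carry redox centres, with cytochrome c and the alpha and beta subunits, were set against the remaining members after the values had been seen, so the split is a description with no test. Of the 7 genes Ndufs1, Sdha, Cyc1, Uqcrfs1, Cycs, Atp5a1 and Atp5b, none was called higher and 4 were called lower (2 with RLE factors), with a median log2 fold change of -0.19. Of the other 33, 24 were called higher and 1 lower, with a median of 0.79. By library size all 7 were called lower, at a median of -0.55, and the other 33 split into 17 higher and 5 lower at 0.43. All tested genes had 39.6% called higher and 42.4% lower by TMM, at a median of -0.06. By library size these were 29.8% and 53.6%, at a median of -0.41. The median of the 7 genes less the all-gene median was -0.13 by TMM and by library size. The 7 genes held 0.256% ± 0.00937 of the counts in KO and 0.362% ± 0.0107 in Con, and the other 33 held 0.481% ± 0.0364 in KO and 0.386% ± 0.0177 in Con (SD, n = 3 each). Ratios of counts within a library, which no scaling changes, were chosen afterwards too. Ndufb7 to Ndufs1 was 1.72, 2.29 and 1.76 in KO and 0.558, 0.434 and 0.435 in Con, Uqcrh to Cyc1 was 2.89, 3.42 and 3.92 in KO and 1.42, 1.36 and 1.34 in Con, and Atp5e to Atp5b was 0.208, 0.248 and 0.231 in KO and 0.0869, 0.0906 and 0.0948 in Con.

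The same genes differ in transcript size. Coding length, of the principal GENCODE M21 transcript, was available for 38 members and for 8205 of the tested genes. Among the 30 members of up to 600 coding bases the median log2 fold change was 0.66, and among the 8 longer ones -0.12. Over all tested genes the medians were 0.30 for 1029 short genes and -0.13 for 7176 longer ones. The 4 members of over 1500 bases, Ndufs1, Sdha, Atp5a1 and Atp5b, had a median of -0.26, beside -0.24 for all genes of that length. Spearman's rho between fold change and coding length was -0.35 across the 38 members and -0.12 across the 8205 genes, both across genes of the same libraries, which are not independent replicates. The part of transcript length in the members' differences was not tested.

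**Figure D5:**
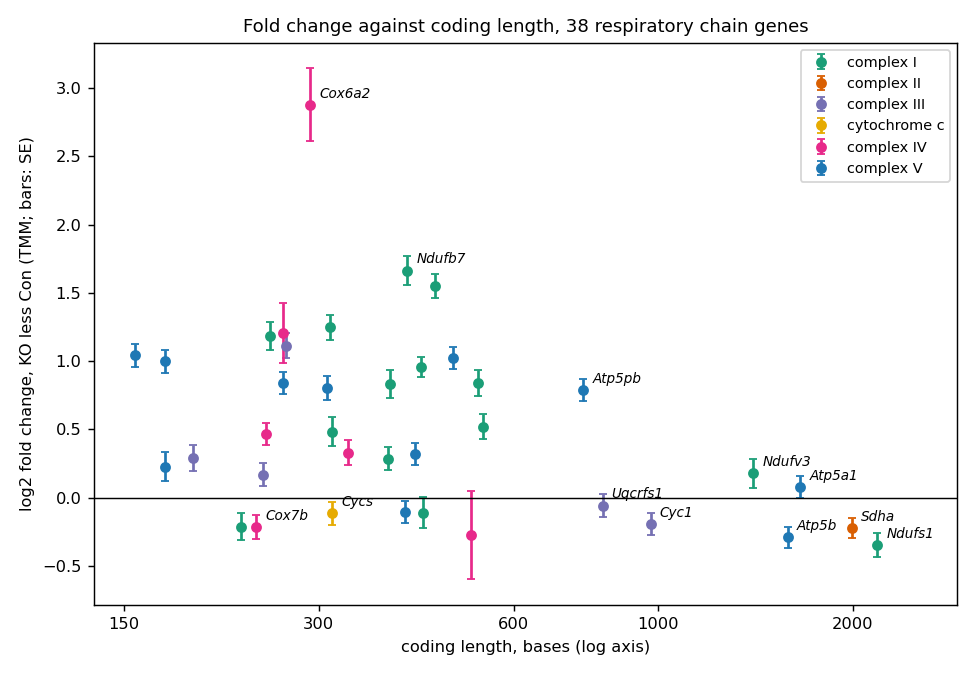
Log2 fold change, KO less Con (TMM, bars are standard errors), against coding length in bases on a log axis for 38 respiratory chain genes, coloured by complex. Genes of up to 600 bases spread from -0.27 to 2.88. Of the 8 longer ones Atp5pb is at 0.79 and the others lie between -0.35 and 0.18, where Ndufv3 (0.18) and Atp5a1 (0.08) turn negative by library size.

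Upstream sequences are shown for the leading gene of complexes I, III and V and for the members called lower that have an entry, to set genes of one pathway that moved in opposite directions side by side. Promoters of 31 of the 40 genes were found in the RefSeq table of build GRCm38.p6, and the 250 bases before each start are given 5′ to 3′ on the gene's strand. Capitals mark matches, on either strand, to the ETS (GABPA) core CCGGAAG, the NRF1 core GCGCATGC, the YY1 core AAGATGGC or the CCAAT box, factors known from respiratory chain promoters.
Ndufb7, chr8:83566508-83566757, plus strand: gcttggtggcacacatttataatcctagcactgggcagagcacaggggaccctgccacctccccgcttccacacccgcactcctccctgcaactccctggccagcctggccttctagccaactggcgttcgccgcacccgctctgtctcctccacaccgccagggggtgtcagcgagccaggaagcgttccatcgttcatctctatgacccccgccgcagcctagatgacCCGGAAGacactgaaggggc
Uqcrh, chr4:116075071-116075320, minus strand: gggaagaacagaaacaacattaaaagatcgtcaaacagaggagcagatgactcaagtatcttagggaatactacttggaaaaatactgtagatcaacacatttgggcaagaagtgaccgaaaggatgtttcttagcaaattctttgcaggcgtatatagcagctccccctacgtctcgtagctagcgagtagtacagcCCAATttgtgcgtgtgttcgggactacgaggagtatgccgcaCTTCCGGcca
Atp5e, chr2:174464102-174464351, minus strand: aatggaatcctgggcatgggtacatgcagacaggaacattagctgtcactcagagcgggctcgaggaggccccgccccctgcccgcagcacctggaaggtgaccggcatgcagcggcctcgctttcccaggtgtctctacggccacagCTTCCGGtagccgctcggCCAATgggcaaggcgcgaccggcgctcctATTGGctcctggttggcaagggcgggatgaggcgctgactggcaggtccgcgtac
Sdha, chr13:74350241-74350490, minus strand: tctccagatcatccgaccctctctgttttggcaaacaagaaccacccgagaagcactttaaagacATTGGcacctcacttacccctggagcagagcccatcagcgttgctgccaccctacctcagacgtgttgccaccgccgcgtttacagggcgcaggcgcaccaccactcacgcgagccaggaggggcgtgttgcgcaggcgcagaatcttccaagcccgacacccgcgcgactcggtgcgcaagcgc
Cox7b, chrX:106015450-106015699, plus strand: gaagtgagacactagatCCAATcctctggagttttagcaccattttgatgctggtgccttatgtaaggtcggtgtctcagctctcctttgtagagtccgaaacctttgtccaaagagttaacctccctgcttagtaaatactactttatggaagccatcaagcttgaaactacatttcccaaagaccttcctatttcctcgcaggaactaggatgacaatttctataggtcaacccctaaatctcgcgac
Atp5b, chr10:128083057-128083306, plus strand: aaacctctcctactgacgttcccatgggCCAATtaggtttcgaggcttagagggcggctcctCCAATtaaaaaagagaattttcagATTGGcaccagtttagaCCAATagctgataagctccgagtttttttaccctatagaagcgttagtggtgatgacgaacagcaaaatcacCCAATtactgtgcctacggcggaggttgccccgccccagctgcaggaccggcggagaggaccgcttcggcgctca

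Among these, Ndufb7 and Uqcrh hold the ETS core close to the start, Atp5e holds it farther upstream beside CCAAT boxes, and Sdha, Cox7b and Atp5b hold only CCAAT boxes. The ETS core was found in 6 of the 31 promoters (19.4%), those of Atp5e, Atp5h, Atp5l, Ndufb6, Ndufb7 and Uqcrh, all of them genes called higher by TMM, as were 21 of the 31 genes with an entry, though Ndufb6 turns to -0.07 by library size. Of the 25 members with an entry but without the ETS core, 15 were called higher, 3 lower and 7 neither. The ETS core was found for 7.83% of the 27025 genes of the promoter table. These include genes not tested here, and the motifs were not counted over the tested genes alone. The NRF1 core was in 2 of 31 (6.45%), Atp5l and Cycs, against 2.56%, the YY1 core in 0 of 31 against 1.83%, and the CCAAT box in 20 of 31 (64.5%) against 37.5%. None of the motifs searched contains another, and a match is a description of these letters, not a site of binding.

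Genes that build or regulate the chain were described from lists of known factors. Of 35 assembly factors of the complexes, 9 were called higher and 15 lower by TMM, beside 39.6% higher and 42.4% lower over all tested genes, with a median log2 fold change of -0.22 beside the all-gene -0.06. By library size 5 were called higher and 22 lower, beside 29.8% and 53.6%. For complex I these were 3 higher and 6 lower of 12 by TMM, and 0 and 8 by library size, including Ndufaf7, a methyltransferase for a core subunit (0.60), and Dmac1 (0.56), and Timmdc1 (-0.58) and Tmem126b (-0.77), factors of the membrane-arm intermediates. For complex IV they were 5 higher and 7 lower of 15 by TMM, and 4 and 9 by library size, with Pet100 (0.90) and Cmc2 (1.14) among the higher, and Cox15, which makes heme a (-0.93), and Lrpprc, which stabilises mitochondrial messenger RNA (-0.63), among the lower. Uqcc3 of complex III was higher (1.05), and Tmem70 (-0.65) and Atpaf1 (-0.36) of complex V were lower, while the 1 factor of complex II was not called. Cox15 averaged 39.0 ± 1.52 CPM in KO and 74.5 ± 1.78 CPM in Con (SD, n = 3 each), a difference with an adjusted p of 3.3e-06, and Pet100 40.8 ± 1.91 CPM in KO and 21.9 ± 1.30 CPM in Con, with an adjusted p of 1.9e-05.

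Coenzyme Q synthesis and cytochrome c maturation had 1 gene called higher and 4 lower of 10 by TMM, and 1 and 7 by library size, with Coq10b at 1.13, and Coq3, a methyltransferase of the coenzyme Q ring, at -1.44 and Coq9 at -0.46. Of 18 tested genes for mitochondrial DNA expression and biogenesis, 6 were called higher and 7 lower by TMM, and 4 and 10 by library size. These counts are near the all-gene shares, which were 39.6% higher and 42.4% lower by TMM. By library size the all-gene shares were 29.8% and 53.6%. Polg, the mitochondrial DNA polymerase, averaged 120 ± 10.3 CPM in KO and 58.8 ± 3.23 CPM in Con, a log2 fold change of 1.03 with an adjusted p of 4.4e-06. Nrf1, a transcription factor of respiratory chain promoters, averaged 73.8 ± 7.29 CPM in KO and 39.6 ± 1.62 CPM in Con (log2 fold change 0.90, adjusted p 1.5e-05), while Top1mt, the mitochondrial topoisomerase (-2.01), and Tefm, the elongation factor of mitochondrial transcription (-1.32), were lower. Mitochondrial ribosomal proteins, which translate the mitochondrial-encoded core subunits, had 10 higher and 14 lower of 52 at a median of -0.02, with Mrpl33 at 2.19, Mrpl48 at 1.26, Mrpl45 at -1.65 and Mrps18b at -1.02. By library size the same list had 3 higher and 36 lower. Cytoplasmic ribosomal proteins, also short and abundant, had 21 higher and 2 lower of 33 at a median of 0.41 by TMM, and 8 higher and 7 lower by library size.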

How the data were processed

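The authors deposited expected counts per gene for 6 bone marrow libraries, 1 column each and with no scaling, per the file headers. TRIzol extraction and a BGI Optimal Dual-mode kit were used, per the labels' protocols. Which aligner, counter and strand setting were used is not given in the sources used here. As genome build, the submitters' processing notes list only the human build GRCh38, although the gene IDs are those of mouse, so no coordinates were taken from the table. Some library has a count that is not whole for 1449 of 9295 genes (15.6%), 4 members among them (Ndufb4, Ndufb4c, Ndufb11 and Ndufa13), and counts were rounded. In GENCODE M21, Ndufb11, Atp5a1, Cox6a2, Ndufs1, Ndufb6, Ndufa3, Ndufa13 and Ndufb2 overlap a protein-coding gene on the opposite strand, and Ndufb9, Ndufa13 and Ndufb2 one on the same strand, so their reads may be shared.

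KO was compared with Con in edgeR 4.0.16 under R 4.3.3 (TMM factors, filterByExpr by group, robust quasi-likelihood test, two-sided, no covariate), with Benjamini-Hochberg adjustment over 8358 tested genes and a threshold of 0.05. Standard errors are the fold change over the square root of its F statistic, and the steps were tested on simulated data. CPM values are counts over the TMM-scaled library total, not per length, so levels are compared within a gene only. Alternatives were 4 other scalings, 2 filters, a fit that is not robust, limma-voom (limma 3.58.1), DESeq2 1.42.0, each library left out, Con replicates 2 and 3 summed, and a replicate block. Con replicates 2 and 3 differed least (chi-square per degree of freedom 1.68, against 17.7 to 23.7 for other pairs of a group), but by more than counting noise, and were kept as 2 samples. Members, lists, tests and alternatives were chosen with earlier results of these data known. Named with values were, per complex, the 3 highest and 3 lowest members (all where a complex has 6 or fewer), members whose direction depends on scaling, isoform pairs, and 2 genes per direction by adjusted p from each further list except cytoplasmic ribosomal proteins.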

Additional observations from a re-analysis of the deposited data

How the results depend on the processing

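The 24 members called higher stayed between 17 and 26 under all alternatives run. The number called lower, 5, was less firm: 2 with RLE factors, 12 by library size, 3 with TMM factors made without the neutrophil, promyelocyte and erythroid markers, 3 with the stricter filter (50 counts in 3 libraries), 2 with Con replicates 2 and 3 summed, 3 with DESeq2, and 2 to 7 when 1 library was left out. The median log2 fold change of the members was 0.31 with upper-quartile factors, 0.0433 by library size and 0.50 with the stricter filter, which tests fewer genes. Papola was at 0.14 with upper-quartile factors, -0.13 by library size, 0.24 with Con replicates 2 and 3 summed and 0.17 to 0.27 with 1 library left out. Members that changed direction by library size were Ndufb6 (-0.0705), Ndufv3 (-0.18), Ndufb4c (-0.33), Uqcr10 (-0.0623), Uqcrq (-0.19), Cox7a2l (-0.0258), Atp5g3 (-0.0359), Atp5md (-0.13) and Atp5a1 (-0.28), and with upper-quartile factors Ndufb4c (-0.0592) and Atp5a1 (-0.00788). Ndufb4c ranged from -0.0205 to 0.0699 with 1 library left out. The KO less Con difference of the members' summed share, -0.0112 percentage points, became 0.158 when counts of the neutrophil, promyelocyte and erythroid markers were left out of the total. Apart from what these scalings do by construction, the cause was not tested. Over single members and alternatives, 618 values kept direction and call, 34 lost the call, 15 gained one and 12 changed direction.

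Libraries that share a replicate number did not deviate together (correlations -0.00205, 0.0280 and -0.00435), so no pairing by number was seen in these values. Deviations among 3 libraries per group cannot exclude pairing or a shared batch, and the labels name no batch. With a replicate block 24 members were called higher and 3 lower, and 3270 and 3496 of all tested genes.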

Other observations

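Other genes of the inner membrane and matrix are given from lists written with the results above known, by edgeR's quasi-likelihood test, and no list was compared with other genes by a test. Over all tested genes 39.6% were called higher and 42.4% lower by TMM, and 29.8% and 53.6% by library size. Of 11 matrix chaperones, proteases and prohibitins, 8 were called lower and none higher by TMM, at a median log2 fold change of -0.49, and all 11 were called lower by library size. Lonp1, the main matrix protease, averaged 64.9 ± 3.20 CPM in KO and 241 ± 19.0 CPM in Con (SD, n = 3 each), a log2 fold change of -1.89 with an adjusted p of 7.9e-08, and Afg3l2, a protease of the inner membrane, 62.2 ± 7.17 CPM in KO and 216 ± 6.63 CPM in Con, a log2 fold change of -1.80. Of 8 genes that shape the cristae, 4 were called lower and none higher by TMM, a share near that over all tested genes, and 7 were called lower by library size. Among them were Immt, the core of the crista junction (-0.72), and Opa1, the inner membrane fusion protein (-0.63).

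Among 6 other enzymes that pass electrons to coenzyme Q, 3 were called higher and 2 lower by TMM, and 1 and 3 by library size. Sqor, the sulfide oxidoreductase, averaged 288 ± 23.4 CPM in KO and 56.8 ± 5.83 CPM in Con, a log2 fold change of 2.34 with an adjusted p of 5.5e-08, and 1.99 by library size. Of the electron transfer flavoprotein system, Etfb was at 0.48 by TMM (0.13 and not called by library size), Etfa at -0.32 and its partner dehydrogenase Etfdh at -0.46. Of 5 carriers and channels, 3 were called higher and 1 lower by TMM, but none higher and 2 lower by library size. The adenine nucleotide carrier Slc25a4 averaged 81.7 ± 6.04 CPM in KO and 164 ± 9.84 CPM in Con (-1.002), while the outer membrane channel Vdac2 was at 0.39 by TMM and 0.04, not called, by library size, and Slc25a3, the phosphate carrier, at 0.28 by TMM and -0.08 by library size.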
